A study of Mus musculus with 282 samples.

Results

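Microexons are exons so short that they add only a few amino acids to a protein. In neurons many of them are spliced in by the factors SRRM4 and SRRM3 and are left out in most other tissues, where PTBP1 holds them back, and their host genes are known for work at synapses, in vesicle traffic and in the cytoskeleton. Because most have a length that is a multiple of 3, including or skipping one usually leaves the reading frame of the rest of the protein as it was. The set described here holds 428 of the 5057 exon-skipping events of a transcript assembly of mouse hypothalamus. An event entered the set when, within 1 gene locus, a transcript held an internal exon of at most 30 nt and another transcript joined the same flanking splice sites directly. No expression value was used to choose members. The 428 events held 408 distinct microexons in 332 loci, and the remaining 4629 events had a skipped exon above 30 nt.

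The transcripts were measured by RNA sequencing of the whole hypothalamus of 282 male mice. All were on a high fat, high sugar diet, so the data hold no mouse on another diet. The mice came from 99 strains of the Hybrid Mouse Diversity Panel, a collection of inbred mice made for genetic mapping. It held 25 classical inbred strains and 4 recombinant inbred sets bred from C57BL/6J and another parent, namely 43 BXD strains (with DBA/2J), 18 AXB and BXA strains (with A/J), 7 CXB strains (with BALB/c) and 6 BXH strains (with C3H/HeJ). There were 85 strains with 3 mice, 12 with 2 and 2 with 1, and 1 mouse with conflicting strain labels was left out of the tests. Inclusion is given as PSI, which takes the FPKM of every transcript that holds the microexon as a share of these and the skipping transcripts together, and runs from 0 (always skipped) to 1 (always included). FPKM is a transcript's level per length and per library, and the number of reads behind a value is unknown from it.

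A group of 18 libraries stood apart from the rest. They were all 17 mice of BXD-9/TyJ, BXD62, BXD70, BXD75, BXD85 and BXHA1, and 1 of the 3 BXD87 mice. Between 50.3% and 55.2% of the isoforms that the assembly marks as unannotated were listed at 0 FPKM in them, against 5.94% to 20.2% in 262 of the other mice and 38.1% in the last one, the second BXD-12/TyJ mouse (OB-547). Because PSI is built from these isoforms, counts of called events are given with and without the 18 libraries, and single events are described without them unless all mice are named. BXD-12/TyJ had the lowest strain mean of all strains with at least 2 mice in 51 microexon events and the highest in 23, and CXB-3/ByJ, in which 1 mouse had the next highest share of unannotated isoforms at 0, had the lowest in 12 and the highest in 16. Summed marker levels ranged from 869 to 9383 FPKM for hypothalamus, from 0.589 to 16462 FPKM for anterior pituitary, from 7.25 to 2101 FPKM for choroid plexus and from 17.4 to 381 FPKM for thalamus.

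The microexons on which the results below turn are shown first, because their length and frame define the set. Each is written 5′ to 3′ as the transcript reads, with the microexon in capitals between 9 bases of each neighbouring exon, from the GENCODE M21 transcripts, with mm10 coordinates. The first, in the myosin gene Myo5a, had the largest strain difference outside the 18 libraries.
Myo5a, 9 nt, chr9:75187522-75187530, plus strand: caacccaagGATGACAAGaatacaatg
Kif21a, 15 nt, chr15:90948324-90948338, minus strand: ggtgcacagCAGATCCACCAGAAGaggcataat
Mink1, 24 nt, chr11:70609408-70609431, plus strand: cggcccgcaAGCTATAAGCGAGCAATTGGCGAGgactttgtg
Kif1a, 24 nt, chr1:93026832-93026855, minus strand: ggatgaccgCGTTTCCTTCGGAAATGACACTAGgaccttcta
Kif1a, 27 nt, chr1:93034546-93034572, minus strand: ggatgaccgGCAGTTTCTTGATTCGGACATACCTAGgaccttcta
Eif4g3, 21 nt, chr4:138095909-138095929, plus strand: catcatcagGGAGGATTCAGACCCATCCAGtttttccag
Eif4g1, 21 nt, chr16:20674786-20674806, plus strand: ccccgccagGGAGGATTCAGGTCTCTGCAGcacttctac
Clasp1, 3 nt, chr1:118547656-118547658, plus strand: cacagcaagAGAgttttcagt
The Kif1a pair lies between the same flanking exons and so has the same lower-case bases. The microexons of Eif4g1 and Eif4g3, which encode related scaffold proteins of translation initiation, are the same at 16 of 21 positions, with the first 11 bases identical.

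Most microexons kept the reading frame. Of the 428 events, 86.2% had a length that is a multiple of 3, against 53.7% of the longer skipped exons. Among distinct microexons the count was 351 of 408 (86.0%), against 53.4% of the longer ones. In the GENCODE M21 annotation 362 of the 408 (88.7%) lay in coding sequence, 11 in a UTR, 11 in a noncoding transcript and 24 were not an exon of it. Of the 362 coding ones 88.7% were a multiple of 3, against 57.3% of the longer coding exons, and so were 8 of the 11 noncoding and 18 of the 24 without an M21 exon, whereas the 11 UTR microexons held 4 such lengths. The lengths ran from 3 to 30 nt, with 64 events of 27 nt, 53 of 24 nt, 51 of 18 nt and 46 of 21 nt as the most frequent, and 5 events of 3 nt as the shortest.

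**Figure D1:**
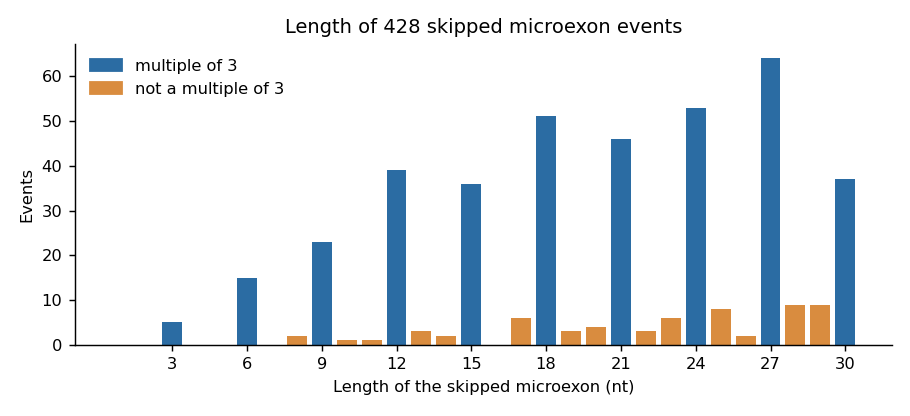
Number of microexon events (y axis) at each length of the skipped microexon in nt (x axis), with multiples of 3 in blue and other lengths in orange. Bars at multiples of 3 hold 86.2% of the 428 events, up to 64 events at 27 nt.

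Other sequence features were described in the 335 distinct microexons found in the annotated transcripts. The last base was G in 80.0% and the last 2 were AG in 185 (55.2%), and the base just before the microexon was G in 79.1%. GC content was 47.5% within the microexons, 51.3% in the 9 bases before and 49.0% in the 9 bases after. The introns on either side had median lengths of 1616 and 1454.5 bases, against 1919 and 1937 bases around longer skipped exons. In 14 pairs of flanking sites 2 microexons lay between the same neighbours, among them Kif1a with 24 and 27 nt, Kif21a with 12 and 15 nt, Macf1 with 12 and 15 nt and Synj1 with 21 and 24 nt. The Kif21a pair, like those of Macf1 and Synj1, shares its last base and differs by 3 bases at its first. Most loci, 263 of 332, had 1 event, 18 had 3 or more, and Ptprd had 5, the most of any locus. Other loci with 3 or more were Clasp1, Kif1a, Enah, Ahi1, Pcdh15, Lrrc16a, Cadps, Kcnma1, Kif21a, Synj1, Nrxn2, Lphn2, Macf1, Cadps2, Tenm3 and Porcn.

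Across the 263 mice outside the 18 libraries, mean PSI spread over the whole range, with a median of 0.492 over the 428 events against 0.577 over the longer skipped exons. A mean below 0.1 was found in 36 events (8.41%) and a mean above 0.9 in 50 (11.7%). All 428 events had a mean summed FPKM of at least 1 and 280 had at least 10, with a median of 13.8 FPKM against 10.4 FPKM for the longer ones. PSI was defined in at least 231 mice for every event. These levels and this coverage come after the study's own filter, which removed weakly detected transcripts. The median SD between mice of 1 strain was 0.0869 on the PSI scale, against 0.0986 for longer exons. The 59 events that shift the frame had a median mean PSI of 0.463 and a median summed FPKM of 9.40, against 0.532 and 14.7 FPKM for those that keep it.

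**Figure D2:**
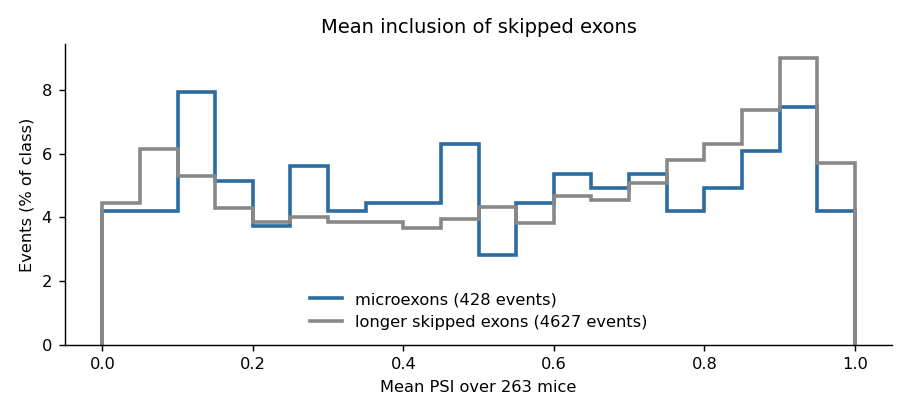
Share of events in % (y axis) by mean PSI over the 263 mice outside the 18 libraries (x axis, steps of 0.05), for microexons in blue and longer skipped exons in grey. Both classes fill the whole range, with medians of 0.492 and 0.577.

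Events at the ends and in the middle of the range show what these levels look like. Dnm1, a dynamin that cuts synaptic vesicles from the membrane, had a 12-nt microexon with PSI from 0.9 to 1 and a median of 0.994, at 253 FPKM in sum. A 6-nt microexon of Snap91, a clathrin adaptor of synapses, ranged from 0.954 to 1 with a median of 0.996. The 24-nt microexon of Gnas, which encodes a stimulatory G protein subunit, ranged from 0.967 to 1, and M21 places it in a noncoding transcript. These were nearly always included, as was 1 of the 2 6-nt microexons of Nsmf, a synapse-to-nucleus messenger (median 1, lowest mouse 0.875). Rps24, a protein of the small ribosomal subunit, had an 18-nt microexon with PSI from 0.00239 to 0.116 and a median of 0.0149, and a 15-nt one of Cadps2, a secretion activator, had 0 to 0.127 and a median of 0.0144. Near the middle, the 18-nt microexon of the tyrosine kinase Src, the known N1 insert of its SH3 domain, had a median of 0.480 with mice from 0.0266 to 0.816, and its strain share of variance was below 0 (adjusted p = 0.886 with all mice and 0.944 without the 18 libraries, limma moderated F test). A 29-nt microexon of Ufl1, an enzyme that attaches the modifier UFM1, had a median of 0.493 between 0.301 and 1.

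The shortest microexons add or remove 1 amino acid. Clasp1, a protein of growing microtubule ends, had a 3-nt microexon with a median PSI of 0.427 and mice from 0.0615 to 0.689. That of Mon2, which acts in Golgi traffic, had a median of 0.657 between 0.381 and 0.925, and that of Tbc1d4, a regulator of Rab GTPases, had 0.170 between 0 and 0.750. Their strain tests did not pass with all mice (adjusted p = 0.276, 0.381 and 0.643, limma) or without the 18 libraries (0.557, 0.387 and 0.669). The 3-nt microexon of Itih3, a subunit of an extracellular inhibitor, had PSI from 0.764 to 0.984 and passed it with and without the 18 libraries (adjusted p = 0.000433 and 0.00206). Apc, a tumor suppressor that binds microtubules, had a 3-nt microexon listed near 0 in most mice outside the 18 libraries (median 7.42e-05, highest 0.553) and at a median of 0.317 within them. Its strain test passed both ways, with adjusted p = 2.27e-07 and 0.0435.

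PSI was then compared among strains, the question the panel is made for. Over all mice 137 of the 428 microexon events (32.0%) passed a limma moderated F test among strains at an adjusted p of 0.05, against a background of 26.7% of all 5055 events tested. Without the 18 libraries 56 events passed (13.1%), against a background of 14.5%, so the microexons as a class were called about as often as all skipped exons. All 56 were among the 137, so each event called without the 18 libraries was also called with all mice. The share of PSI variance that lay between strains had a median of 0.0900 over the 428 events with all mice and 0.0583 without the 18 libraries, against 0.0696 and 0.0502 for the longer exons. Strain differences in microexon inclusion were thus found in a minority of events. With the pituitary and choroid plexus marker sums as covariates, 135 events were called over all mice in place of 137.

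The 18 libraries differed from the other mice most often in events that rest on an unannotated isoform. The median PSI differed by over 0.2 between the 18 libraries and the other mice in 57 of 428 events (13.3%). Such a shift was found in 40 of 153 events (26.1%) with an unannotated including or skipping form, and in 17 of 275 (6.18%) where both forms were known transcripts. The longer skipped exons had the same pattern, so it was not particular to microexons. Of these longer exons 10.8% had such a shift, with 21.1% where a form was unannotated and 5.76% where both were known. Of the 81 microexon events called only with the 18 libraries, 30 had such a shift and 50 had an unannotated form. Among the 12 events with the largest strain share over all mice, 9 had such a shift and 7 an unannotated form, and 5 were still called without the 18 libraries. The largest share of all, 0.886 for Eif4g3 with a skipping form that is unannotated, dropped to 0.0412 (adjusted p = 0.480), and its median PSI was 0.127 in the other mice and 1 in the 18 libraries. The 21-nt microexon of Eif4g1, both forms of which are known, likewise had a median of 0.726 against 0.211 and a share that went from 0.728 to 0.0332. Shares of Lphn1 (15 nt, a latrophilin adhesion receptor), Kif5c (27 nt, a kinesin heavy chain), Tenm4 (27 nt, a teneurin), Inpp4a (18 nt, a phosphoinositide phosphatase) and Fam168a (27 nt) went from between 0.618 and 0.739 to between 0.0431 and 0.157. For the 6 strains held whole, a difference in preparation or sequencing cannot be told apart from strain. BXD87 had mice both among the 18 libraries and outside them, so there the strain was the same. Whether the 18 libraries were prepared or sequenced in another way was not tested.

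**Figure D3:**
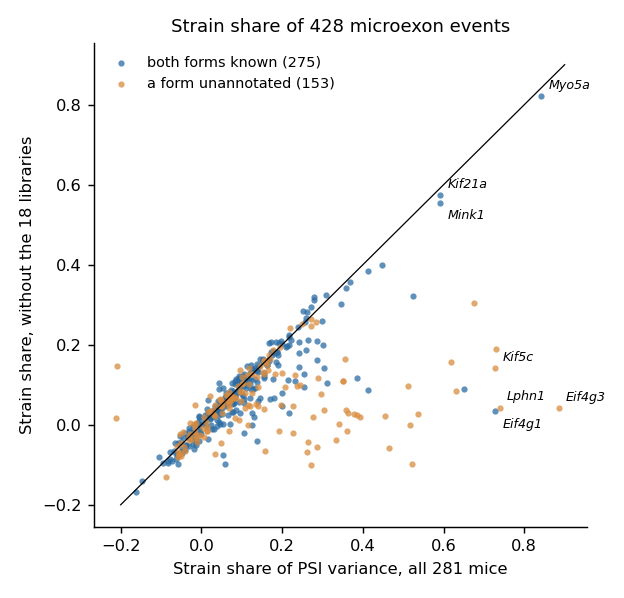
Strain share of PSI variance over all mice (x axis) and without the 18 libraries (y axis) for 428 microexon events, blue where both forms are known transcripts and orange where a form is unannotated, with the diagonal as the line of equal values. Myo5a, Kif21a and Mink1 lie near the line (0.821, 0.574 and 0.555 without the 18 libraries), while Eif4g3, Eif4g1, Lphn1 and Kif5c lie far below it.

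The 56 events called both ways were in 46 loci and were 55 distinct microexons, 52 events of them in coding sequence. Their strain shares without the 18 libraries ran from 0.162 to 0.821, above 0.5 in 3, between 0.25 and 0.5 in 18 and below 0.25 in 35. Strain means spanned over 0.2 in PSI in 42 of them and over 0.5 in 7. These spans include BXD-12/TyJ and CXB-3/ByJ, and part of a span can rest on 1 mouse. For the 9-nt microexon of Macf1 these were the 2 end strains. OB-547 was at 1.85e-06 there (0.319 and 0.196 in the other BXD-12/TyJ mice). In CXB-3/ByJ 1 mouse was at 0.776 (0.347 and 0.385 in the others). Both forms were known transcripts for 46 of the 56, which is 46 of 275 such events (16.7%), against 10 of 153 (6.54%) with an unannotated form. Over all skipped exons these shares were 15.1% and 13.3%. Of the events that keep the frame 54 (14.6%) were called, and of those that shift it 2 of 59 (3.39%), among them a 19-nt microexon of Mrpl33. For the longer skipped exons the shares were 15.1% and 14.1%. The microexon events that shift the frame also varied more between mice of 1 strain, with a median SD of 0.118 against 0.0853. Whether the frame itself has a part in these calls was not tested. By length, 10 of 45 events of 3 to 9 nt (22.2%) were called, 13 of 82 of 10 to 15 nt (15.9%), 11 of 110 of 16 to 21 nt (10%), 16 of 136 of 22 to 27 nt (11.8%) and 6 of 55 of 28 to 30 nt (10.9%), next to 14.5% of all events.

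**Figure D4:**
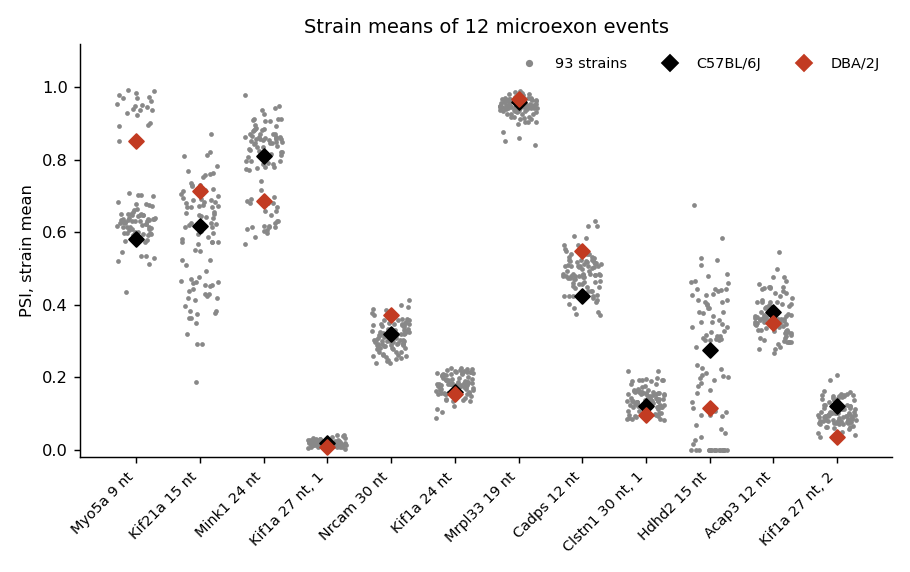
Mean PSI of each strain (y axis) in the 12 microexon events with the largest strain share without the 18 libraries (x axis), as grey points for the 93 strains that remain, with C57BL/6J as black and DBA/2J as red diamonds. Myo5a strain means lie in an upper and a lower group with DBA/2J in the upper one (0.853), and the Mrpl33 means of strains with at least 2 mice lie at or above 0.841.

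Myo5a encodes myosin Va, a motor that carries vesicles and melanosomes along actin, and its tail is assembled from alternatively spliced exons. Its 9-nt microexon differed among strains more than any other outside the 18 libraries, with a strain share of 0.821 (adjusted p = 7.87e-45, limma) and of 0.842 with all mice (adjusted p = 6.95e-53). In C57BL/6J the 3 mice had PSI of 0.533, 0.596 and 0.613, and in DBA/2J 0.910, 0.893 and 0.756. Every DBA/2J mouse was above every C57BL/6J mouse. The transcripts that skip the microexon stood at 21.2, 20.5 and 18.5 FPKM in C57BL/6J and at 2.57, 2.51 and 5.67 FPKM in DBA/2J, while those that include it stood at 24.2, 30.3 and 29.3 FPKM and at 26, 21 and 17.6 FPKM. So the skipping form was the one with the larger gap between the 2 strains.

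The difference of DBA/2J from C57BL/6J was +0.27 in PSI (SE 0.0516, adjusted p = 0.000138 from limma's contrast over all events, and 0.000251 without the 18 libraries), against a background of 1.01% of 5054 events called in this contrast with all mice and 1.03% without the 18 libraries. The call was lost in a fit of the 6 mice of the pair alone (adjusted p = 0.169) and without the second replicate of every strain (0.110).

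The other strains fell on either side of the same step. With all mice, 21 of the 43 BXD strains had a mean PSI from 0.534 to 0.715 and 22 from 0.893 to 0.993, with none between. Without the 18 libraries the counts were 20 and 18, and the step between them was 0.217. Of the 25 inbred strains, DBA/2J, SEA/GnJ (0.941) and I/LnJ (0.973, 1 mouse) were high and the other 22 lay from 0.522 to 0.703. The AXB and BXA means lay from 0.513 to 0.710, the BXH means with all mice from 0.530 to 0.724 and the CXB means from 0.435 to 0.626. The lowest of these, CXB-3/ByJ, held 1 mouse at 0.117. High inclusion was thus seen in the recombinant set that has DBA/2J as a parent and in 3 inbred strains, and in no strain mean of the other 3 sets.

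**Figure D5:**
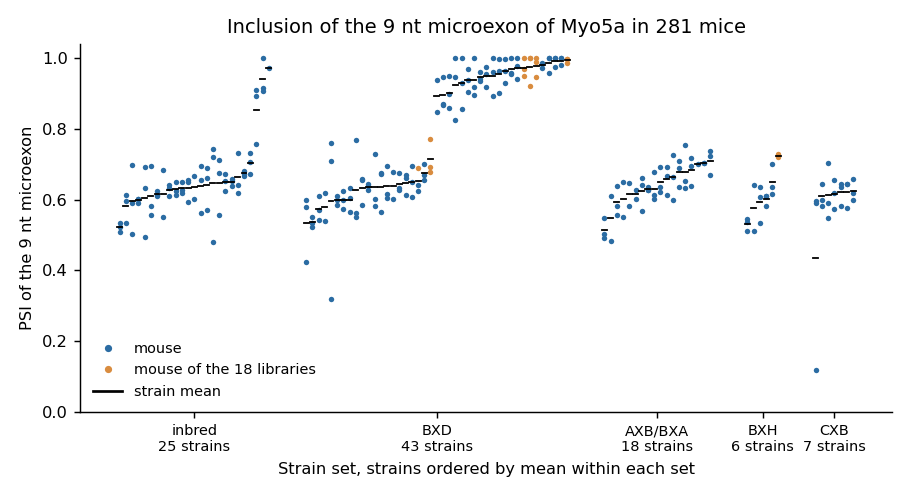
PSI of the 9-nt Myo5a microexon (y axis) in each mouse, with strains ordered by their mean within each of the 5 strain sets (x axis). Points are mice, orange for the 18 libraries, and bars are strain means. The BXD strains form a lower run up to 0.715 and an upper run from 0.893, while the AXB/BXA, BXH and CXB means stay at or below 0.724.

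DBA/2J is known to carry the dilute coat color allele, a retroviral insertion in Myo5a. Whether that insertion has a part in the PSI was not tested. The level of the whole Myo5a locus was lower in DBA/2J than in C57BL/6J, with means of 31.8 and 55.8 FPKM, a difference of -0.80 on the log2(FPKM + 1) scale (SE 0.246, adjusted p = 0.0247, limma), against a background of 6.88% of 14079 genes called in that contrast. In whole tissue, fewer cells of a type and less RNA per cell cannot be told apart.

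Kif21a encodes a kinesin that restrains microtubule growth. The 3 C57BL/6J mice had PSI of 0.560, 0.651 and 0.646 for its 15-nt microexon and the DBA/2J mice 0.936, 0.718 and 0.490, so the DBA/2J mice lay on both sides of the others. Strain means went from 0.188 in NZW/LacJ (mice at 0.242, 0.246 and 0.0757) to 0.871 in BXD64 (0.882, 0.946 and 0.785), which do not overlap. C3H/HeJ (0.347, 0.452 and 0.336) and A/J (0.430, 0.510 and 0.315) lay below all 3 mice of BALB/cJ (0.681, 0.728 and 0.661). The strain share was 0.592 with all mice and 0.574 without the 18 libraries (adjusted p = 3.32e-20 and 2.67e-17, limma). The 12-nt form of this microexon, 3 bases shorter, also differed among strains (share 0.247, adjusted p = 0.00152 without the 18 libraries), with BXD64 the highest for both. Since they share the skipping transcripts and most bases, reads of one are hard to tell from reads of the other. A separate 21-nt microexon of Kif21a had PSI from 0.677 to 1 with a median of 0.871 and was not called (adjusted p = 0.0847 with all mice and 0.103 without the 18 libraries).

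Mink1 is a kinase of the Ste20 family that acts in JNK signaling. Its 24-nt microexon had PSI of 0.848, 0.723 and 0.864 in C57BL/6J, of 0.623, 0.722 and 0.716 in DBA/2J and of 0.965, 0.932 and 0.951 in C3H/HeJ. All C3H/HeJ mice were above all mice of the other 2 strains. Without the 18 libraries strain means went from 0.567 in BXD79 (0.599, 0.489 and 0.613) to 0.981 in PL/J (0.962 and 0.999), and with all mice the lowest was 0.412 in BXD85. The AXB and BXA means lay from 0.741 to 0.912 and the CXB means from 0.781 to 0.914, whereas the 38 BXD means outside the 18 libraries went from 0.567 to 0.938, and 21 of them were at or below 0.699. The strain share was 0.591 with all mice and 0.555 without the 18 libraries (adjusted p = 3.69e-20 and 5.14e-16).

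The called events were also counted by the role of the host gene, beside the 14.5% of all events called without the 18 libraries and the 26.7% called with all mice. No test compared the groups of genes, and all these lists were drawn up with earlier results of these data known. Of 29 events in motor and cytoskeletal genes 9 (31%) were called without the 18 libraries and 14 (48.3%) with all mice, against those 14.5% and 26.7% of all events. Kif1a, a kinesin that carries synaptic vesicle precursors, had 3 of the 9. Its 24-nt microexon had PSI of 0.143, 0.164 and 0.172 in C57BL/6J and of 0.161, 0.153 and 0.146 in DBA/2J, and strain means without the 18 libraries from 0.0884 in PL/J to 0.227 in AXB-19/PgnJ (share 0.357, adjusted p = 4.07e-06). With all mice BXD-9/TyJ was the highest at 0.243 (adjusted p = 2.54e-07). The 27-nt microexon between the same neighbours was included far less, with a median of 0.0179 (share 0.398, adjusted p = 0.00919). A further 27-nt microexon of Kif1a (chr1:93065552-93065578) stood at 0.110, 0.126 and 0.130 in C57BL/6J and at 0.0415, 0.0381 and 0.0272 in DBA/2J, the lowest strain of all (strain share 0.303, adjusted p = 0.000105). The DBA/2J mice were all below the C57BL/6J mice, but this single contrast did not pass (-0.086, SE 0.0305, adjusted p = 0.176). Kif1b, a related kinesin, had an 18-nt microexon from 0.629 to 0.898 that passed narrowly without the 18 libraries (adjusted p = 0.0492, and 0.0219 with all mice). Its 27-nt one, with a median of 0.246, passed with all mice only (0.0303, and 0.133 without the 18 libraries). Macf1, which links actin to microtubules, had a called 9-nt microexon with a median of 0.327 and a called 12-nt one with a median of 0.292. Its 15-nt and 18-nt microexons, with medians of 0.405 and 0.772, were not called either way. The 15-nt microexon of the spectrin gene Sptan1 (median 0.954) did not pass either way, and that of the dynactin gene Dctn1 (0.742) passed with all mice (adjusted p = 0.00774) and not without the 18 libraries (0.0679).

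Cell adhesion and axon guidance genes had 7 of 30 events called without the 18 libraries (23.3%, against 14.5% of all events) and 14 with all mice (46.7%, against 26.7%). Nrcam, an adhesion molecule of axons, had a 30-nt microexon with PSI of 0.292, 0.351 and 0.314 in C57BL/6J and strain means without the 18 libraries from 0.240 in BXA-8/PgnJ (0.218, 0.269 and 0.232) to 0.413 in BXH-9/TyJ (0.354, 0.448 and 0.436), with a share of 0.384 (adjusted p = 2.62e-07). Those end strains do not overlap. With all mice BXD70 was the highest at 0.452 (adjusted p = 1.86e-09). Neurexins, presynaptic organizers whose splice inserts set their choice of partner, had 3 called events, a 24-nt one of Nrxn2 (median 0.646) and 27-nt ones of Nrxn3 with medians of 0.796 and 0.163. Ptprd and Ptprs are receptor phosphatases that organize synapses from the axon side. In Ptprd, the 18-nt microexon of mini-exon A (median 0.800) and the 12-nt mini-exon B (0.810) were called, with NZB/BlNJ highest for both at 0.935 and 0.938, while its 9-nt (0.940), 27-nt (0.916) and other 12-nt (0.0248) microexons were not called without the 18 libraries. With all mice the 9-nt and the other 12-nt ones passed as well (adjusted p = 0.0194 and 0.00965). A 27-nt microexon of Ptprs had a median of 0.718 and was called (adjusted p = 0.0306). The 30-nt VASE exon of Ncam1 (median 0.321), the 12-nt exon of L1cam (0.596) and an 18-nt one of Nfasc (0.663) did not pass either way.

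In vesicle traffic and endocytosis 4 of 23 events were called without the 18 libraries (17.4%, near the 14.5% of all events) and 11 with all mice (47.8%, against 26.7%). A 12-nt microexon of the dynamin Dnm3 had PSI from 0.861 to 0.985, and 21-nt and 24-nt microexons of the phosphatase Synj1 were included at a median of 1, the shorter with a low strain mean of 0.676 in BXD68. The 21-nt microexon of Cltc, the clathrin heavy chain, went from a strain mean of 0.156 in SM/J to 0.371 in DBA/2J (share 0.183, adjusted p = 0.026). Outside that list, Cadps, which primes dense core vesicles for release, had a 12-nt microexon with PSI of 0.358, 0.515 and 0.405 in C57BL/6J and 0.559, 0.626 and 0.668 in C3H/HeJ, with no overlap. Its strain share was 0.325 (adjusted p = 1.65e-05). The lowest strain mean, 0.373 in BXD-12/TyJ, held the mouse with many isoforms at 0 (0.177, against 0.475 and 0.469 in the other 2).

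Ion channels and receptors had 2 of 13 events called without the 18 libraries (15.4%, near the 14.5% of all events) and 6 with all mice (46.2%, against 26.7%). Among the 2 was a 9-nt microexon of Kcnma1, the BK potassium channel, at a median of 0.654 (adjusted p = 0.00207). GTPase regulators and kinases had 6 of 16 called with all mice (37.5%, against 26.7%) and 2 without the 18 libraries (12.5%, near 14.5%), an 18-nt microexon of the GTPase-activating gene Arhgap44 with a median of 0.395 and a 27-nt one of the kinase Mark2 with 0.266. Genes of transcription, RNA and translation had 0 of 14 called by the limma F test without the 18 libraries and 4 with all mice (28.6%, near 26.7%). In the list of genes known for neural microexons, 60 of 99 had an event, with 92 events, 17 of them called without the 18 libraries (18.5%, against 14.5% of all events) and 44 with all mice (47.8%, against 26.7%).

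Some called events lay outside the lists. A 30-nt microexon of Clstn1, a calsyntenin that links cargo to kinesin, went from a strain mean of 0.0812 in BXH-9/TyJ (0.0683, 0.0906 and 0.0847) to 0.217 in AXB-20/PgnJ (0.215, 0.194 and 0.243), with a share of 0.322 (adjusted p = 3.18e-05). With all mice BXD62 was the highest at 0.296 (adjusted p = 5.17e-15). A second Clstn1 event, whose exon is the same one shifted by 1 base at both ends and is absent from M21, was also called. Acap3, a GTPase-activating protein for Arf GTPases, had a 12-nt microexon that was included at a median of 0.365 in the other mice and of 0.0169 in the 18 libraries. It was called both ways, and without them BXD-21/TyJ (0.230, 0.297 and 0.276) was the lowest and BXH-4/TyJ (0.513, 0.594 and 0.527) the highest strain. Mrpl33, a mitochondrial ribosomal protein, had its 19-nt microexon, which shifts the frame, at 0.770, 0.907 and 0.847 in CE/J and at 0.995, 0.993 and 0.979 in BXD-40/TyJ. A 15-nt microexon of Hdhd2 in a UTR was at 0 in all 3 BXD-15/TyJ mice and at 0.686, 0.771 and 0.570 in BXD68, at 5.62 FPKM in sum.

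A further called event was chosen for mention after its values were seen. The 12-nt microexon of the histone demethylase gene Kdm1a, which makes its neuronal form, had a median of 0.0781 and its highest strain mean, 0.244, in A/J (adjusted p = 0.0102). Both of its forms were known transcripts.

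Only 1 other microexon passed the contrast of DBA/2J with C57BL/6J, an event of the Eif4g3 microexon whose forms are both known. PSI was 0.742, 0.649 and 0.896 in C57BL/6J and 1, 0.902 and 0.990 in DBA/2J, with no overlap, a difference of +0.20 (SE 0.0466, adjusted p = 0.00401, and 0.00623 without the 18 libraries, limma). C57BL/6J had the lowest strain mean, 0.762, of the strains with at least 2 mice outside the 18 libraries. The skipping form was low, at 2.08, 1.32 and 0.902 FPKM in C57BL/6J and 0, 0.782 and 0.0921 FPKM in DBA/2J, and the strain test over all mice did not pass (adjusted p = 0.0841). The call was also lost on the arcsine square root scale (adjusted p = 0.0860), without the first or the second replicate of every strain (0.184 and 0.306) and in a fit of the 6 mice alone (0.401). The other 21-nt Eif4g3 event, whose skipping form is unannotated, did not pass the contrast. Its strain means outside the 18 libraries ran from 0.0620 to 0.248, so the level of inclusion depended on which event was read.

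The level of the host genes is a separate measure. Among the 332 host loci 258 (77.7%) differed among strains in log2(FPKM + 1) by the limma F test, against a background of 75.4% of 14079 genes, and 233 (70.2%) did without the 18 libraries, against 71% of all genes. Of the 46 loci with an event called without the 18 libraries, 35 were called at the gene level as well. Kif21a was not among them (adjusted p = 0.247 without the 18 libraries), so its PSI differed among strains where the locus did not pass, though no test compared the 2 measures.

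Splicing regulators of neural microexons were all expressed, and 19 of 24 differed in level among strains, with and without the 18 libraries, next to 75.4% and 71% of all genes. The values that follow are over all mice. Srrm4, the main activator of neural microexons, ranged from 5.30 to 15.6 FPKM with a strain share of 0.585 (adjusted p = 4.85e-20). Its relative Srrm3 ranged from 9.62 to 20.4 FPKM and did not pass (adjusted p = 0.0519). Rnps1, which acts with SRRM4 on microexons and associates with the exon junction complex, had the largest share of the 24, 0.949 (adjusted p = 8.68e-97). Its level was 31.5, 29.3 and 31.6 FPKM in C57BL/6J and 12.3, 12.8 and 11.4 FPKM in DBA/2J, a difference of -1.28 on the log2(FPKM + 1) scale (SE 0.111, adjusted p = 8.39e-21). BXD strain means of Rnps1 ran from 8.86 FPKM in BXD-12/TyJ, which holds the mouse OB-547, to 31.9 FPKM in BXD-9/TyJ, which is among the 18 libraries. Celf4 (-0.29) and Elavl2 (-0.56), RNA-binding proteins of neurons, were the other 2 regulators that passed this contrast. Thus 3 of the 24 passed it, against a background of 6.88% of 14079 genes. Ptbp1, the repressor outside neurons, ranged from 8.38 to 27.4 FPKM (share 0.171, adjusted p = 0.0054), and Ptbp3, Mbnl2, Elavl4 and Pqbp1 did not pass. No relation between the level of a regulator and the PSI of a microexon was computed.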

How the data were processed

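Whole-hypothalamus RNA of 282 male mice was sequenced from unstranded libraries. Per the labels and the study's methods, the authors aligned reads to mm10 with STAR 2.3.1, assembled and merged transcripts with Cufflinks 2.2.0 and scaled levels between mice with Cuffnorm 2.2.1. The deposited values are FPKM per gene and per transcript, with no counts, so depth and counting error are unknown here, and PSI rests on estimated transcript abundances rather than on junction reads. Every column of per-mouse values was used (0 were not).

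Skipping events were built from the merged assembly, and those with PSI in at least 200 mice (5055 of 5057) were tested. Strains were compared with a limma 3.58.1 moderated F test (R 4.3.3) on PSI, with Benjamini-Hochberg adjustment over all events, and DBA/2J with C57BL/6J as a contrast of the same fit. Gene levels used log2(FPKM + 1), with a pseudocount of 1. The strain share is the intraclass correlation, which can fall below 0. Tables were handled in Python 3.11.15. The tests were also run on simulated data that took their spread within strains from these data. Exon places and sequences came from GENCODE M21 transcripts. Strains came from the labels, and the design text names the mice of a strain biological replicates. The marker lists, the role lists and the members were chosen with earlier results of these data known.

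Named were the 12 largest strain shares among called events, the events of known neural microexon genes (up to 25 by level), those that passed the DBA/2J contrast, the 5 shortest, regulators, genes with 3 or more events, and the 3 highest, 3 lowest and 3 nearest a mean PSI of 0.5 with at least 10 FPKM. The 12 largest shares without the 18 libraries were added after the data were seen, and other genes are said to be so or are called events of a role list. Alternatives varied the PSI formula and scale, transcripts, length limit, covariates, libraries, strain sets and test. Some events are not reported here.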

Additional observations from a re-analysis of the deposited data

How the results depend on the processing

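The count of 137 microexon events called among strains was between 125 and 149 with 0.1 FPKM added, the arcsine square root of PSI, a summed FPKM of at least 1, a limit of 27 nt, read number and mapping covariates or marker sums as covariates, without the mouse OB-547, and with the mouse of conflicting labels placed in AXB-6/PgnJ (141) or AXB-8/PgnJ (142). It was 73 of 275 with known transcripts only, 26 of 159 with transcripts that differ only by the microexon, 71 with a Kruskal-Wallis test, 38 in the 25 inbred strains alone, 74 in the 43 BXD strains alone, and 55 to 80 without 1 replicate of every strain. Settings added after seeing the data gave 56 without the 18 libraries, 65 without these and OB-547, and, without the 18 libraries, 55 of 275 with known transcripts, 23 of 159 with transcripts that differ only by the microexon and 28 with a Kruskal-Wallis test. The cause of these differences was not tested, but the smaller sets hold fewer mice or events by construction. The 2 events of the DBA/2J contrast became 1 on the arcsine square root scale, 5 with known transcripts, 0 with transcripts that differ only by the microexon, 0 in the 6 mice alone, 4 without the 18 libraries and OB-547, and 0 to 3 without 1 replicate of every strain. The 77.7% of host loci called at the gene level became 44.3% to 62.7% without 1 replicate of every strain (lowest without replicate 2), and lay between 70.2% and 86.7% in the other settings. Of 1040 values of single events or genes under these alternatives 824 stayed on their side of the threshold and 216 no longer passed, while 0 reversed. The F test among strains has no direction, so its values could not reverse. Of the 56 events called without the 18 libraries, 8 were called in every fit over all strain sets, those of Myo5a, Mink1, Kif1a (24 nt), Cadps, Hdhd2, Acap3 and both Clstn1 events. Not every event exists in every fit. Of 63 events followed, 48 could be built from known transcripts and 21 from transcripts that differ only by the microexon. The Clstn1 events hold the same exon shifted by 1 base at both ends. No paired analysis was possible because the mice carry individual numbers and no replicate number shared between strains. FPKM gives no read numbers, so PSI of weakly expressed events has an unknown counting error.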

Other observations

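Pairs of events can share their transcripts. The 18-nt and 3-nt microexons of Mon2 had the same PSI in every mouse, as did both 27-nt events of Col25a1, since the same transcripts hold both, and the PSI of the 6-nt and 12-nt microexons of Cacna1b, like those of 24 and 12 nt of Slit2, added to 1 in every mouse. These pairs are 1 measurement each.

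The mouse with conflicting strain labels had 10.8% of unannotated isoforms at 0 FPKM, within the range of the other mice, and its gene FPKM summed to 339180. The mouse OB-547 had a gene FPKM sum of 792801 and 35.8% of known transcripts at 0, next to 5.03% to 20.2% in the 262 mice outside the 18 libraries.

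Beyond the reading frame, the place of a microexon's first base within a codon was counted for the sequenced coding microexons that keep the frame. It was the first base of a codon in 125, the second in 105 and the third in 73.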
